A study of Mus musculus with 10 samples.

Results

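A set of 10 genes of the Wnt pathway is described here: the secreted antagonists Sfrp1, Sfrp2, Dkk2 and Dkk3, the receptors Fzd1, Fzd2, Fzd4 and Fzd7, and the intracellular inhibitors Apc and Axin2. They were taken by name from the annotation of an Agilent mouse expression array, on which 14 probes in 15 spots carry the name of 1 of the 10 genes, out of 34607 genes and transcripts on 55681 probes. Of the 10 members, 6 had a probe bright enough to be tested (Sfrp2, Dkk2 and the 4 receptors), and 4 did not (Sfrp1, Dkk3, Apc and Axin2).

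RNA came from C2C12 cells, a mouse myoblast line that divides in rich medium and can form myotubes. The cells were lipofected with 150 nM of a miR-27a-3p mimic, a synthetic RNA that supplies the mature microRNA (6 samples), or with the same dose of a scrambled sequence (4 samples), and were collected after 72 h. The submitters put the transfection efficiency at about 60%, so each mimic sample mixes cells with and without the mimic, and all samples come from 1 cell line. The 10 files held 2 scans of each of 5 array positions on 1 slide, although the labels describe every replicate as a separate transfection. Outlier marks fell on 52 to 96 common spots in files from the same position, and on 5 to 25 in any other pair. Deviations from the group mean separated the pairs less clearly. Their correlation was 0.29 to 0.58 for files from the same position and -0.89 to 0.38 for other pairs. Files from the same position were averaged and counted as 1 replicate, which gave 3 mimic and 2 scrambled arrays. Levels are given in log2, with the 75th percentile of a file's detected probes set to 0, differences are mimic minus scrambled sequence on that log2 scale, and "above background" is the scanner software's own mark. A gene rose or fell where its adjusted p was below 0.05 in limma, adjusted over all 13138 genes and transcripts tested. Of these 5.15% were called, 2.8% higher and 2.34% lower (368 and 308 genes, against 503 and 234 with a percentile that includes the undetected probes).

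Wnt proteins are secreted signals that bind Frizzled receptors together with the co-receptors Lrp5 and Lrp6. Without them a destruction complex built on Axin and Apc marks beta-catenin for degradation, and with them beta-catenin accumulates and works with Tcf and Lef factors on target genes, of which Axin2 is a widely used readout and a feedback inhibitor. Secreted Frizzled-related proteins (Sfrp) carry a Frizzled-like domain that binds Wnt, and most Dickkopf proteins (Dkk) block the co-receptors. In muscle, Wnt signals act on satellite cells and on the choice between myogenic and other fates, and Fzd7 is a known receptor for Wnt7a on satellite cells. Published work has named Apc and Sfrp1 as targets of miR-27 in other cells.

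The microRNA that was raised is shown with its relative miR-27b-3p, because the bases in capitals, the seed at positions 2 to 8, select the targets and are the same in both. The sequences are those of RefSeq on GRCm38.p6, where miR-27a-3p lies on chromosome 8 (84208727 to 84208747) and miR-27b-3p on chromosome 13 (63300760 to 63300780). Target sites in the members' transcripts were not analysed here.
miR-27a-3p: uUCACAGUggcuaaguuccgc
miR-27b-3p: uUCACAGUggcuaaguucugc

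Among the members, 1 of the 6 tested rose after the mimic, the secreted antagonist Sfrp2, and none fell under limma, against 2.8% higher and 2.34% lower of all genes tested. At an unadjusted p under 0.05, Sfrp2 was higher and Fzd7 lower, that is 2 of 6 against 25.3% of all genes. The arrays of the groups did not overlap for the same 2 of 6 genes, against 45.6% of all genes (19.8% higher and 25.8% lower). The median difference of the 6 was -0.09, against -0.05 for all genes.

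**Figure D1:**
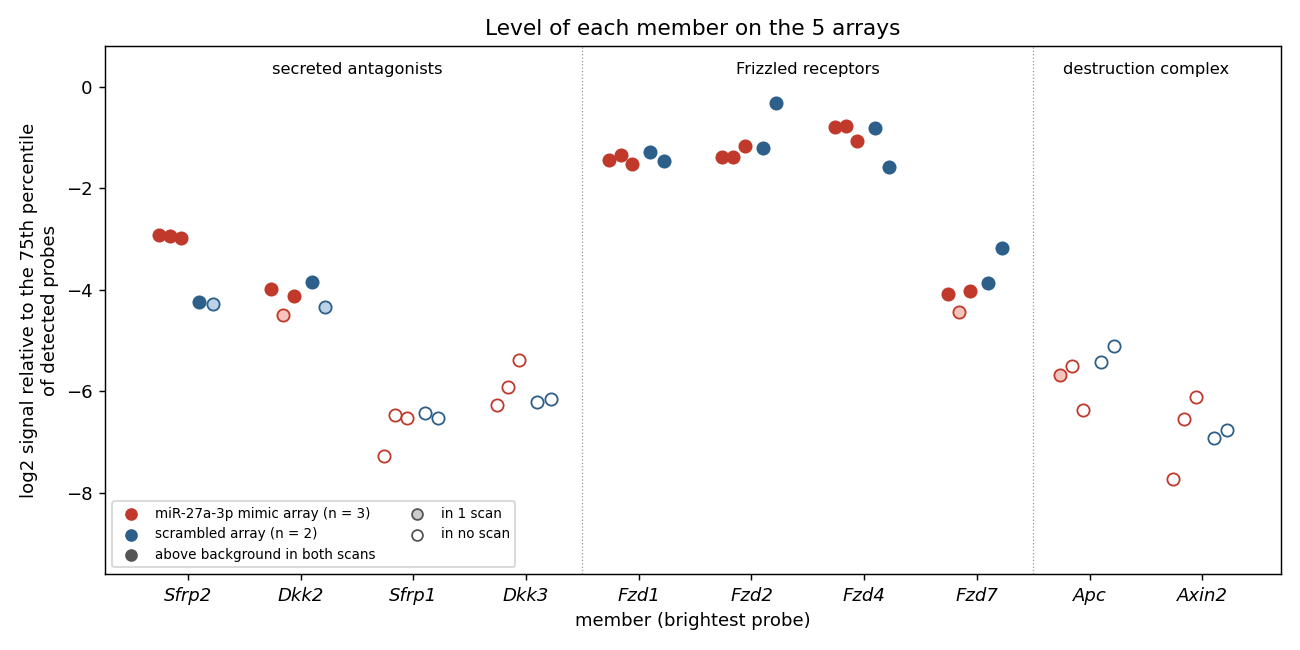
Log2 signal of the brightest probe of each member on the 3 mimic arrays (red) and the 2 scrambled arrays (blue), with the fill showing in how many of an array's 2 scans the probe was above background. Sfrp2 is the only member tested whose mimic arrays all lie above its scrambled arrays, and Sfrp1, Dkk3 and Axin2 are open on every array. Heights of different genes come from different probes and cannot be compared.

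Sfrp2, which binds Wnt proteins outside the cell, was measured by 1 probe on chromosome 3 (mm9, 83577864 to 83577923). Its level was -2.92, -2.93 and -2.97 on mimic arrays 1 to 3 and -4.23 and -4.29 on scrambled arrays 1 and 2. All mimic arrays were above both scrambled arrays, and within each group the arrays, each averaged over 2 scans, lay close together. The means were -2.94 ± 0.03 (SD, n = 3) and -4.26 ± 0.04 (SD, n = 2), a rise of 1.31 ± 0.13 (SE) or 2.49-fold in limma (adjusted p = 0.00897). The probe was above background in every mimic file and in 3 of 4 scrambled ones. Single files ran from -3.17 to -2.78 with the mimic and from -4.43 to -4.14 with the scrambled sequence. All scrambled signals were thus close to the 1 that missed the mark, and the size of the rise rests on signals near background. The rise was 1.28 in the first scan taken alone and 1.35 in the second. It was 0.71 with normexp background correction (adjusted p = 0.0402). The call was lost without mimic array 1 or 2, at 1.30 and 1.31 (adjusted p = 0.0764 and 0.0575), and with no filter on dim probes, at 1.31 (adjusted p = 0.135). It held without mimic array 3 and without either scrambled array.

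Dkk2, a Dickkopf protein that acts through Lrp6, was dim. Its probe on chromosome 3 (131842357 to 131842416) was at -3.99, -4.50 and -4.12 on the mimic arrays and at -3.84 and -4.34 on the scrambled arrays, above background in 5 of 6 and 3 of 4 files. The groups overlapped. The difference was -0.11 ± 0.23 (SE, adjusted p = 0.786) with a 95% interval of -0.68 to 0.46, which leaves room for a change in either direction.

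Sfrp1 and Dkk3 were above background in none of the 10 files. Sfrp1, the closest relative of Sfrp2 in the list, was at -7.26, -6.47 and -6.52 on the mimic arrays and at -6.43 and -6.52 on the scrambled arrays (chromosome 8, 24559438 to 24559497). Dkk3, a divergent Dickkopf protein, was at -6.27, -5.91 and -5.38 and at -6.21 and -6.15 (chromosome 7, 119259556 to 119259615). The order of signals of this size cannot be read, and a difference in either gene was not detectable with 1 probe each at this sensitivity.

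All 4 Frizzled genes were measured on every array, and none passed the test in either direction. Fzd1 was the most even of the 4. Its probe on chromosome 5 (4754003 to 4754062) was at -1.45, -1.34 and -1.52 on the mimic arrays and at -1.28 and -1.46 on the scrambled arrays. The groups overlapped, with a difference of -0.07 ± 0.14 (SE, adjusted p = 0.786) and a 95% interval of -0.42 to 0.29, so a change of 2-fold lies outside the interval.

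Fzd4, which also serves as the receptor of Norrin, was at -0.80, -0.78 and -1.07 on the mimic arrays and at -0.82 and -1.59 on the scrambled arrays (chromosome 7, 96557478 to 96557537). Scrambled array 1 lay within the range of the mimic arrays and scrambled array 2 below it. The difference was 0.33 ± 0.25 (SE, adjusted p = 0.448, 95% interval -0.30 to 0.95). Without scrambled array 1 it was 0.71, and without scrambled array 2 it was -0.06.

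Fzd2 was at -1.39, -1.38 and -1.17 on the mimic arrays and at -1.22 and -0.33 on the scrambled arrays, by its brighter probe on chromosome 11 (102467613 to 102467672). Scrambled array 1 again lay within the range of the mimic arrays, and scrambled array 2 lay above it. The difference was -0.54 ± 0.28 (SE, adjusted p = 0.272, 95% interval -1.22 to 0.14), -0.98 without scrambled array 1 and -0.10 without scrambled array 2.

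Fzd7 was dim, at -4.09, -4.43 and -4.02 on the mimic arrays and at -3.87 and -3.18 on the scrambled arrays, by its brighter probe on chromosome 1 (59543192 to 59543251). The probe was above background in 5 of 6 mimic files and in all 4 scrambled files. Both scrambled arrays lay above all mimic arrays, the nearer one by less than the spread among the mimic arrays. The difference was -0.66 ± 0.25 (SE, 95% interval -1.28 to -0.04) and missed the threshold (adjusted p = 0.179). It was -1.003 without scrambled array 1 (adjusted p = 0.0294) and -0.31 without scrambled array 2 (adjusted p = 0.428). It was also called when the 10 files were taken as 10 arrays (adjusted p = 0.0164), a setting that counts each array position 2 times.

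The scrambled arrays lay 0.89, 0.77 and 0.69 apart for Fzd2, Fzd4 and Fzd7, against a range of 0.23, 0.28 and 0.41 over the mimic arrays. For Fzd1 the 2 spreads were 0.18 and 0.18, and for Sfrp2 they were 0.05 and 0.05. The differences of Fzd2, Fzd4 and Fzd7 therefore turned on which scrambled array was used, which was not so for Sfrp2.

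**Figure D2:**
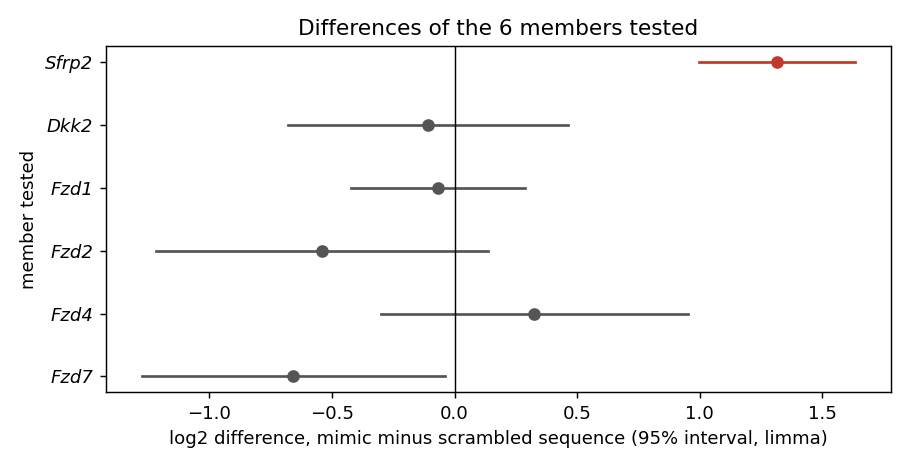
Log2 difference (mimic minus scrambled sequence, horizontal axis) of the 6 members tested, with the 95% interval from limma, n = 3 and n = 2 arrays. The interval of Sfrp2 (red, called) runs from 0.997 to 1.63, and the intervals of Dkk2, Fzd1, Fzd2 and Fzd4 include 0.

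Fzd2 and Fzd7 each had 2 probes that disagreed in brightness. The Fzd2 probe at transcript position 1868 was above background in all 10 files and that at position 3300 in none. For Fzd7 it was the reverse, with the probe at position 2376 above background in no file and that at position 4201 in 9 of 10. The earlier probes of both genes cover an alike stretch. They are shown in full because they show how near these receptors are in sequence. In the best alignment without gaps 42 of 50 bases were equal, and the capitals mark the 8 aligned bases that differ. Both are from the array's annotation, on the plus strand of mm9 at chr11:102467613-102467672 and chr1:59541367-59541426.
Fzd2 probe: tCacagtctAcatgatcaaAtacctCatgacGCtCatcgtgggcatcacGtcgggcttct
Fzd7 probe: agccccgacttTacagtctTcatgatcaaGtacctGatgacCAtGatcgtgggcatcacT
The Fzd7 probe shown here was at -7.04, -6.23 and -6.93 on the mimic arrays and at -7.23 and -6.68 on the scrambled arrays, above background in no file, although the alike stretch of Fzd2 gave a clear signal on the same arrays. How much Fzd7 transcript the bright Fzd2 probe takes up was not tested. The dim probe of Fzd2 was at -7.35, -6.66 and -5.97 on the mimic arrays and at -5.46 and -5.22 on the scrambled arrays. It was above background in no file, so the higher position of both scrambled arrays cannot be read.

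The core of the destruction complex among the members, Apc and Axin2, gave almost no signal. Apc, the scaffold that holds beta-catenin in the complex, has 2 probes. The probe at transcript position 791 was above background in 1 of 10 files (a scan of mimic array 1). It was at -5.67, -5.51 and -6.37 on the mimic arrays and at -5.43 and -5.12 on the scrambled arrays. Both scrambled arrays lay above all mimic arrays, an order that cannot be read this near background. The probe at position 10243, printed in 2 spots, was above background in no file and lay between -6.83 and -6.52. Axin2 has probes at positions 1971 and 4196 on chromosome 11 (108803927 to 108803986 and 108812034 to 108812093), and both were above background in no file. The first was at -7.73, -6.54 and -6.12 on the mimic arrays and at -6.91 and -6.77 on the scrambled arrays, and the second at -7.48, -6.37 and -6.86 and at -7.19 and -6.74. The groups overlapped for both Axin2 probes, and no difference in the common readout of beta-catenin activity was detectable with these probes.

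**Figure D3:**
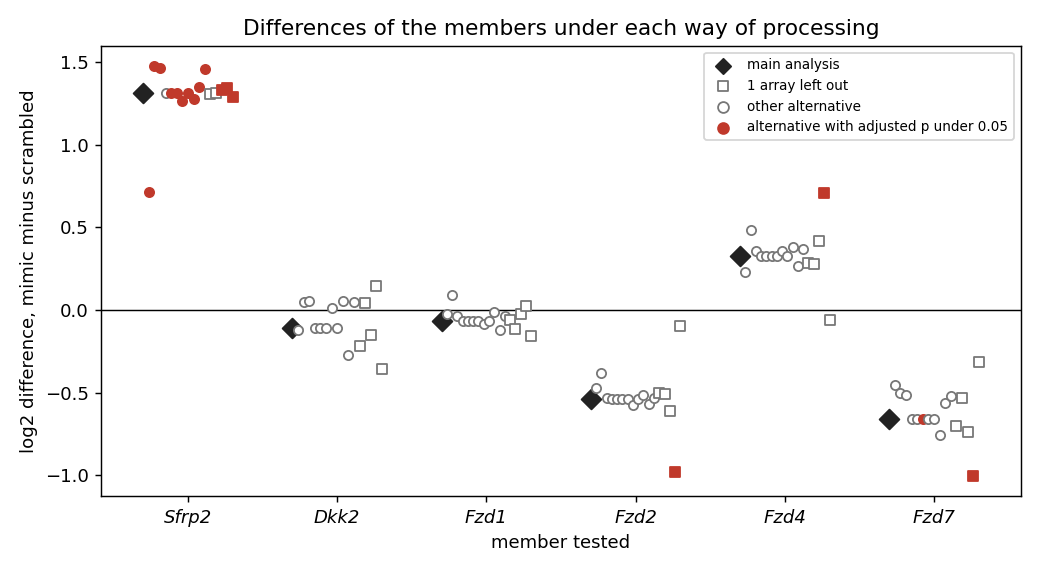
Log2 difference of each of the 6 members tested (vertical axis) in the main analysis (black diamond), with 1 array left out (squares) and under the other alternatives (circles), in red where the adjusted p was below 0.05. Sfrp2 lies between 0.71 and 1.47 throughout, whereas Fzd2, Fzd4 and Fzd7 are spread by the 2 squares that leave out a scrambled array, and Dkk2 and Fzd1 lie on both sides of 0.

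Among 10146 other genes with a current symbol, Gm3776 had the centred levels over the 5 arrays nearest to those of Sfrp2, at a root mean square difference of 0.033 (log2). Gm3776 was at 1.44, 1.50 and 1.41 on the mimic arrays and at 0.12 and 0.05 on the scrambled arrays. Its difference was 1.36 ± 0.13 (SE, adjusted p = 0.00860).

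The rest of the pathway was read from a list of 142 other genes, of which 141 are on the array and 74 were tested. Of the 74, 3 rose (Sfrp4, Bcl9 and Ccnd1), 1 fell (Prickle1) and 70 did not pass. Over the whole array, rises made up 2.8% of the genes tested and falls 2.34%. Whether the list held more calls than other genes was not tested. The median difference of the 74 was 0.02, against -0.05 for all genes tested. An unadjusted p under 0.05 was found for 22 of the 74, against 25.3% of all genes, and the arrays did not overlap for 34 of the 74, against 45.6%. Both shares are slightly above those of all genes and near them.

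Sfrp4, another secreted Frizzled-related protein, was the one further antagonist bright enough to be tested among the 11 listed, which include Dkk1, Wif1 and Frzb. It was at -2.91, -3.24 and -3.18 on the mimic arrays and at -3.97 and -4.05 on the scrambled arrays, above background in all 10 files. All mimic arrays were above both scrambled arrays, and the rise was 0.90 ± 0.16 (SE, 1.87-fold, adjusted p = 0.0376). It was 0.54 with normexp (adjusted p = 0.0899), and the call was lost without any 1 mimic array or without scrambled array 2 (adjusted p from 0.0818 to 0.184), and it was lost in the first scan alone (adjusted p = 0.0635).

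Of 19 Wnt ligands, 4 were tested and none was called. Wnt10b, a ligand that holds back fat cell formation, was at -3.42, -3.39 and -3.48 on the mimic arrays and at -4.13 and -4.69 on the scrambled arrays. Its difference of 0.98 ± 0.20 just missed the threshold (SE, adjusted p = 0.0511), with 2 of 4 scrambled files above background. Wnt10a was at 0.70 ± 0.14 (adjusted p = 0.0535) and Wnt9a at 0.70 ± 0.25 (adjusted p = 0.154). Wnt1 was at -0.01 ± 0.19 (adjusted p = 0.978). The enzymes and carriers for secretion, Porcn and Wls, and the Wnt-inactivating Notum ranged from -0.13 (Notum) to 0.25 (Wls) with no call.

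None of the other receptors passed, with 5 of 12 tested. They ranged from -0.65 ± 0.20 for Fzd6 (adjusted p = 0.128) to 0.01 ± 0.19 for the co-receptor Lrp5 (adjusted p = 0.976), and its partner Lrp6 was at -0.40 ± 0.15 (adjusted p = 0.167). None of the 8 R-spondins and their receptors or of the remaining ligands was bright enough. The 2 membrane inhibitors tested were Kremen1, a Dkk receptor, at -0.69 ± 0.18 (adjusted p = 0.0902) and Tpbg at 0.50 ± 0.14 (adjusted p = 0.0997).

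Inside the cell, 0 of 11 tested genes listed with the destruction complex, besides Apc and Axin2, passed in limma. Of the 11, 2 had an unadjusted p under 0.05, against 25.3% of all genes. The 11 ranged from -1.07 ± 0.36 for Ppp2r1a, a scaffold of protein phosphatase, to 0.44 ± 0.24 for the tankyrase Tnks2 (adjusted p = 0.144 and 0.305). The kinase Gsk3b was at 0.41 ± 0.20 and Axin1 at -0.38 ± 0.23 (adjusted p = 0.261 and 0.331). Of 13 transducers and modulators none passed, with Dvl2, a Dishevelled protein, at -1.24 ± 0.27 and Nkd2, a Dishevelled-binding inhibitor, at 0.98 ± 0.20 (adjusted p = 0.0610 and 0.0515).

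Of 15 nuclear genes, Bcl9, which links beta-catenin to Pygo proteins, rose by 1.21 ± 0.18 (SE, adjusted p = 0.0243). It was at -3.24, -3.24 and -3.53 on the mimic arrays and at -4.72 and -4.37 on the scrambled arrays, with 2 of 4 scrambled files above background. The call was lost with normexp (0.55, adjusted p = 0.113) and without any 1 mimic array (adjusted p from 0.0646 to 0.135). A second Bcl9 probe, at transcript position 5041, was above background in no file, with a difference of -0.02. Ctnnb1, beta-catenin itself, was at -0.18 ± 0.17 (adjusted p = 0.535), and Tle2, a co-repressor, had the lowest value in this group at -0.50 ± 0.14 (adjusted p = 0.0977).

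Of 11 genes listed as transcriptional targets, 1 rose. Ccnd1, the G1 cyclin, was at 0.83, 0.97 and 0.77 on the mimic arrays and at -0.50 and -0.07 on the scrambled arrays, a rise of 1.14 ± 0.18 (SE, adjusted p = 0.0276). That call was lost without any 1 mimic array (adjusted p from 0.0917 to 0.138). Many signals besides Wnt control Ccnd1. Myc was at 0.61 ± 0.18, Jag1 at 0.75 ± 0.20 and Ephb3 at -0.61 ± 0.29 (adjusted p = 0.106, 0.0921 and 0.244). Jag1 was above background in all 6 mimic files but in 1 of 4 scrambled files. It was thus kept through its mimic files, and the size of its difference cannot be read. Prickle1, a planar polarity protein, fell by 1.28 ± 0.18 (SE, adjusted p = 0.0186), from -1.60 and -1.89 on the scrambled arrays to -3.07, -3.19 and -2.83 on the mimic arrays. It was the 1 call among 9 genes of the polarity and calcium branch, whose highest value was 0.75 ± 0.31 for Nfatc1 (adjusted p = 0.206). Nfatc1 was above background in all 6 mimic files but in 2 of 4 scrambled files. The Prickle1 call, too, was lost without any 1 mimic array (adjusted p from 0.0559 to 0.114).

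**Figure D4:**
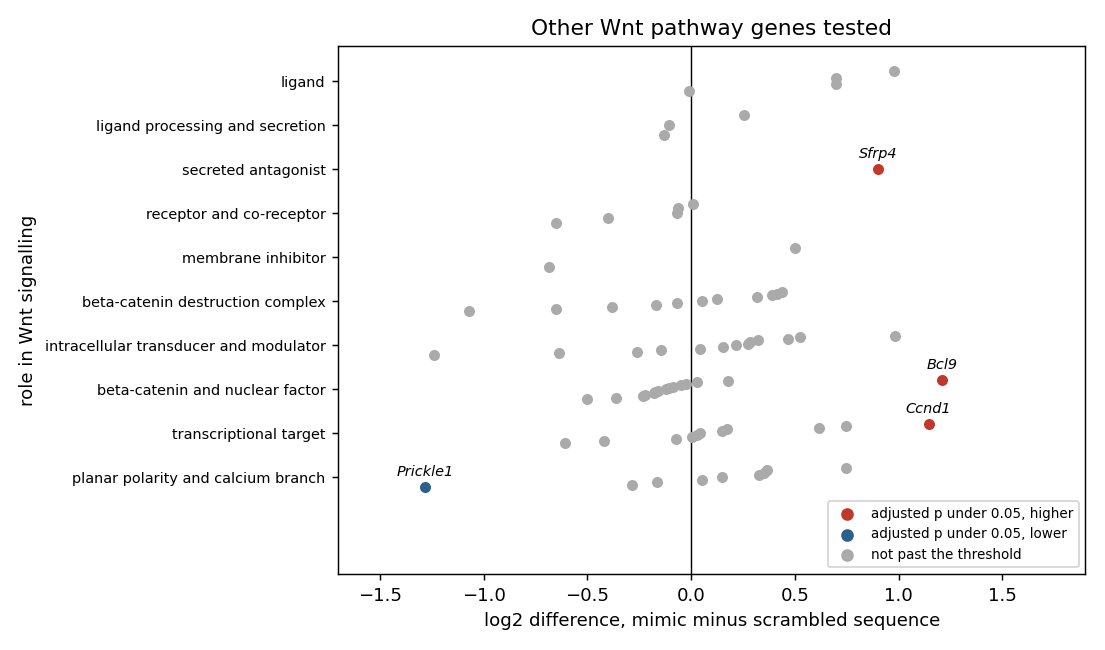
Log2 difference (mimic minus scrambled sequence, horizontal axis) of the 74 other Wnt pathway genes tested, 1 point per gene, by role. The 3 genes past the threshold and higher are red, the 1 lower is blue, and the other 70 are grey on both sides of 0.

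Marker genes describe the cells in which these values were read. Of 8 myoblast markers 6 were above background in all files and Pax7 in none, and 0 of the 6 tested passed in limma. The mean level of the 6 tested was also lower with the mimic, at 1.10 to 1.15 over the mimic arrays and 1.32 to 1.76 over the scrambled arrays. Of 7 markers of differentiating muscle 5 fell, against 2.34% of all genes tested. The mean level of the 7 was -1.06 to -0.25 over the mimic arrays and 1.18 to 1.30 over the scrambled arrays. Of 5 tested markers of fibroblasts and smooth muscle 2 fell, against the same 2.34% (mean level -1.42 to -1.29 and -1.11 to -0.79). Tcf21 and Myh11 were above background in no file. The keratinocyte markers Krt5, Krt14, Krt8 and Cdh1 were above background in no file. Of 5 osteoblast markers 3 were above background in no file and 0 in all files. Of 4 endothelial markers 3 were above background in no file and 1 in all, and of 4 immune markers 2 in no file and 1 in all. Of 5 adipocyte markers Adipoq, Plin1, Fabp4 and Cfd were above background in no file, whereas Lpl, which muscle also expresses, was above background in all 10 and was not tested, because its brightest probe was marked as an outlier on 1 array. The part of the lower muscle markers in the rise of Sfrp2 was not tested, and in these bulk samples fewer cells of a kind and less RNA per cell cannot be told apart.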

How the data were processed

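The deposited scanner files give the intensity of each spot after subtraction of background and detrending, made with Agilent Feature Extraction 12.0.0.7 per the file headers (10.7.3.1 per the submitters' processing notes), with probe positions on mm9. Control and outlier spots were left out, log2 signals of 1 probe were averaged, and from each file the 75th percentile over the 13029 probes above background in all 10 files was subtracted. The 2 files of an array position were averaged. Probes above background in at least 4 files were kept (16786), and each gene was represented by its brightest kept probe (13138 tested). In each file 27.0% to 35.3% of spots were above background; precision is limited by how few arrays there are. The comparison used limma (3.58.1, in R 4.3.3) with lmFit, eBayes and Benjamini-Hochberg adjustment, and was also tested on simulated data. Its p-values reflect only how far these arrays differ among themselves, in part perhaps technically. With 3 and 2 arrays, an exact permutation test could give no p under 0.1 and was not used. Alternatives changed the background correction, scaling, filter, choice of probes, treatment of scans and arrays included.

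Members and lists were chosen with earlier results of these data known. All members were named, as were the other pathway genes past the threshold and those at the ends of a role's range; further pathway genes named (Wnt9a, Wnt10a, Lrp6, Gsk3b, Axin1, Ctnnb1, Myc, Jag1 and, as secretion genes, Porcn) were chosen after their values were seen. The rule for likeness of pattern names 2 genes per called member, of which 1 is not reported here. Probes were named through transcript accessions or symbols in the RefSeq table of GRCm38.p6, used for names only. The deposited value table, of linear intensity as seen from its values, was an alternative; how it was scaled between arrays and its rule for empty cells are unknown. Its column medians were 192.1, 275.6, 260, 214.7, 252.7 and 294.2 for mimic replicates 1 to 6 and 245, 244.8, 202.9 and 214.9 for scrambled replicates 1 to 4. Each array's values followed its own scanner file (Spearman correlation 0.9987 or more), uncentred.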

Additional observations from a re-analysis of the deposited data

How the results depend on the processing

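Without any filter on dim probes no member, no other pathway gene and 11 higher and 6 lower of all genes were called, so that 0 replaced the 1 member, the 3 higher and the 1 lower pathway genes. With probes above background in all files, 3 members were left, Sfrp2 was not among them, 0 members were called higher, and 2 pathway genes were lower. The higher pathway genes numbered 1 with normexp, 6 with the percentile over all probes (which moved the median of all genes from -0.05 to 0.11), 6 with the scan as a block and 5 in the first scan alone. Taken as 10 arrays, the files gave 17 higher and 11 lower pathway genes, 1 lower member (Fzd7), and 1971 higher and 2541 lower genes. With the replicate block they gave 9 and 4 pathway genes and 872 and 1078 genes in all. Same-numbered samples of the groups deviated together for number 1 only (correlations of 0.38, -0.04, -0.35 and -0.10 for numbers 1 to 4). Only for number 1 was the scrambled sample's best match its own number. The main analysis did not pair samples by number. With the scan as a block, 4 pathway genes were lower, and 705 genes were higher and 754 lower. Leaving out 1 array gave 0 to 2 higher members, 0 to 2 lower members, 0 to 14 higher and 0 to 11 lower pathway genes, and 30 to 1888 higher and 17 to 2464 lower genes, the upper ends all without scrambled array 1, where the lone scrambled array is assumed to vary like the mimic arrays. Dkk2 changed sign, to 0.050, 0.057, 0.011, 0.055 and 0.049 with the percentile over all probes, quantile normalisation, the replicate block, the first scan and the value table, and to 0.04 and 0.14 without mimic array 2 or scrambled array 1 (-0.36 to 0.14 with 1 array left out). Fzd1 changed to 0.091 with the percentile over all probes and to 0.023 without scrambled array 1 (-0.16 to 0.023), and Fzd4 to -0.058 without scrambled array 2 (-0.058 to 0.71). The cause of these changes was not tested. Sfrp2 kept its direction in all 16 alternatives that gave it a value (0.71 to 1.47) and its call in 13.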
